A study of Rattus norvegicus with 9 samples.

Results

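Collagens and the matrix proteins laid down with them make up the scar of a fibrotic liver, and 40 such genes were followed in the liver RNA of rats. They were chosen by name, as fibrillar and other collagen chains, basement membrane components, proteoglycans, elastic fibre and matricellular proteins and the lysyl oxidases. Earlier results of these data were known when they were chosen, so the counts below describe the list and do not test it. Of the 40, 38 had a row under their own symbol among the 32883 genes of the table, and these 38 are the members counted below. Mfap4, a microfibril protein, had no row under its symbol. Col6a3 was matched through the NCBI gene identifier in the description of a row with another name (ENSRNOG00000019648), and its values are given apart from the counts.

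Each group held 3 male Sprague-Dawley rats, with 1 library from the liver of each rat, 9 rats in all. Normal control rats (N1, N3 and N12) ate a normal diet, and no injection is described for them. DEN model rats (M13, M17 and M24) received weekly intraperitoneal injections of 0.01% diethylnitrosamine (DEN), a carcinogen that hepatocytes activate, over a course of 16 weeks, during which rats were also killed at earlier times. PZH administration rats (G27, G28 and G42) received the same DEN and also Pien-Tze-Huang (PZH), a Chinese patent medicine. The treatment label of the deposited samples reads PZH for the M rats as well as for the G rats. M13, M17 and M24 were assigned to the DEN model from the first letter of their names, and because the study's methods list 3 normal, 3 DEN model and 3 PZH rats. The study had a low-dose and a high-dose PZH group. Which dose G27, G28 and G42 each received is not given in the sources used here, so they may not share a dose. The week of collection and the age of each sequenced rat are not given either, and neither is whether a piece of liver held tumour.

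In fibrosis, hepatic stellate cells and portal fibroblasts turn into myofibroblasts, which secrete fibrillar collagens I and III into the space between hepatocytes and sinusoids. Basement membrane proteins, which a normal sinusoid largely lacks as a continuous layer, are laid down along it and around bile ductules. Lysyl oxidases cross-link the collagen and elastin outside the cell, and cross-linked matrix is slow to be removed. Hepatocytes are themselves a main source of plasma fibronectin and of collagen XVIII in a healthy liver.

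Total counts ran from 14922973 to 27161496 per rat, with G27 the deepest. Levels are given as CPM (counts divided by a library size and set to a common scale), with that size scaled with edgeR's TMM factors, and 3 counts corresponded to between 0.125 and 0.252 CPM, a floor that covers counting error only. TMM factors were 0.731 to 0.799 in normal control rats, 1.21 to 1.58 in DEN model rats and 0.863 to 0.941 in PZH administration rats. With library totals in place of TMM factors, the median over all genes moved on the log2 scale by 0.86 between DEN model and normal control rats, by -0.67 between PZH administration and DEN model rats and by 0.23 between PZH administration and normal control rats, so each direction is relative to the TMM scaling. Albumin (Alb), which marks hepatocytes, stood at 90040 to 101900 CPM in normal control rats, 14140 to 30810 in DEN model rats and 68820 to 98390 in PZH administration rats. In RNA from whole liver, a change in the number of cells of one type and a change in RNA per cell cannot be told apart.

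Most of the matrix genes were higher in DEN model rats than in normal control rats. Calls rest on the quasi-likelihood test of edgeR and on a Benjamini-Hochberg adjusted p under 0.05, where the adjustment covers every gene tested. In that test 32 of 38 members were higher, against 25.3% of the 14255 genes tested, and 1 member, Col18a1, was lower, against 20.5% of genes. The remaining 5, Col14a1, Lum, Emilin1, Fn1 and Lox, were not called. The median log2 fold change of the 38 members was 2.76, and it was also 2.76 with Postn, which had 0 counts in every normal control rat, set at its lower bound. The median of all genes tested was 0.03. The 3 DEN model rats lay wholly above the 3 normal control rats in 33 members, against 31.4% of all genes, and wholly below in 2, Col18a1 and Fn1, against 27.4%. At the stricter thresholds of the study, a change of more than 2 on the log2 scale in either direction with P under 0.001 before adjustment, 23 members were higher, against 8.81% of genes, and 0 were lower, against 3.49%.

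With PZH, members were lower than in DEN model rats or not called. In the same test, 20 of 38 members were lower in PZH administration rats, against 10.3% of the 14272 genes tested. None was higher at an adjusted p under 0.05, against 8.72% of genes. At an unadjusted p under 0.05, 31 members were lower and 1, Col18a1, was higher, and DESeq2 called 28 lower and 1 higher. Shares of all genes under these other rules are not given here, so these counts cannot be set against them. The median log2 fold change of the members was -1.46, against 0.01 over all genes. The 3 PZH administration rats lay wholly below the 3 DEN model rats in 29 members, against 22.5% of genes, and wholly above in 0, against 18.4%. At the thresholds of the study, 2 members were lower, Col8a1 and Loxl1, against 1.35% of genes, and 0 were higher, against 1.08%. The count of 20 depended on which rats were included. It was 7 without M13, 9 without G28, 9 without G42, 10 without M24, 17 without G27 and 27 without M17. Shares of all genes called with 1 rat left out are not given here. Whether these shifts are particular to the members was not tested. The calls of Col4a1, Col8a1, Col12a1, Thbs1, Lamb1, Nid1 and Loxl1 held with any 1 rat left out. Those of Fbn1 and Lamc1 were lost without M13 alone, that of Col1a1 without M13 or any of the 3 PZH administration rats, and those of Col4a2 and Col5a2 without M13, M24, G28 or G42. Col3a1, Col5a1, Col15a1, Lum, Fbln2, Tnc, Vcan and Lox lost theirs when any rat except M17 was left out. The largest adjusted p of the other 13 with 1 rat left out ran from 0.0584 for Fbn1 to 0.183 for Lum.

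PZH administration rats still differed from normal control rats in a part of the list. Of the 35 members with enough counts to be tested, 16 were higher in PZH administration rats, against 4.07% of the 13348 genes tested. None was lower, against 1.15% of genes, and none was lower at an unadjusted p under 0.05 or in DESeq2. The median log2 fold change was 1.19, against -0.02 over all genes. The PZH administration rats lay wholly above the normal control rats in 24 of the 35 tested members, against 13.6% of genes, and wholly below in 0, against 10.6%. At the thresholds of the study, 5 members were higher, Col1a1, Col12a1, Fbln1, Vcan and Loxl1, against 2.16% of genes, and 0 were lower, against 0.165%. The count of 16 was 5 without G28 and 5 without N1, and 12 to 19 with any other rat left out. Here too, shares of all genes with a rat left out are not given, so these counts cannot be set against them. The calls of Col1a1, Col12a1, Fbn1, Lamb1 and Loxl1 held with any 1 rat left out. The other 11 were lost without G28 and also without N1. Col4a1 and Dcn were further lost without N3, N12 or G42, Col5a2 without N3 or G42, and Nid1 and Vcan without N12. All 3 comparisons share groups of rats, so they are not independent of each other. The p-values, over 3 rats against 3, weigh a difference between groups against the spread between these animals. That spread is estimated partly from all genes.

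**Figure D1:**
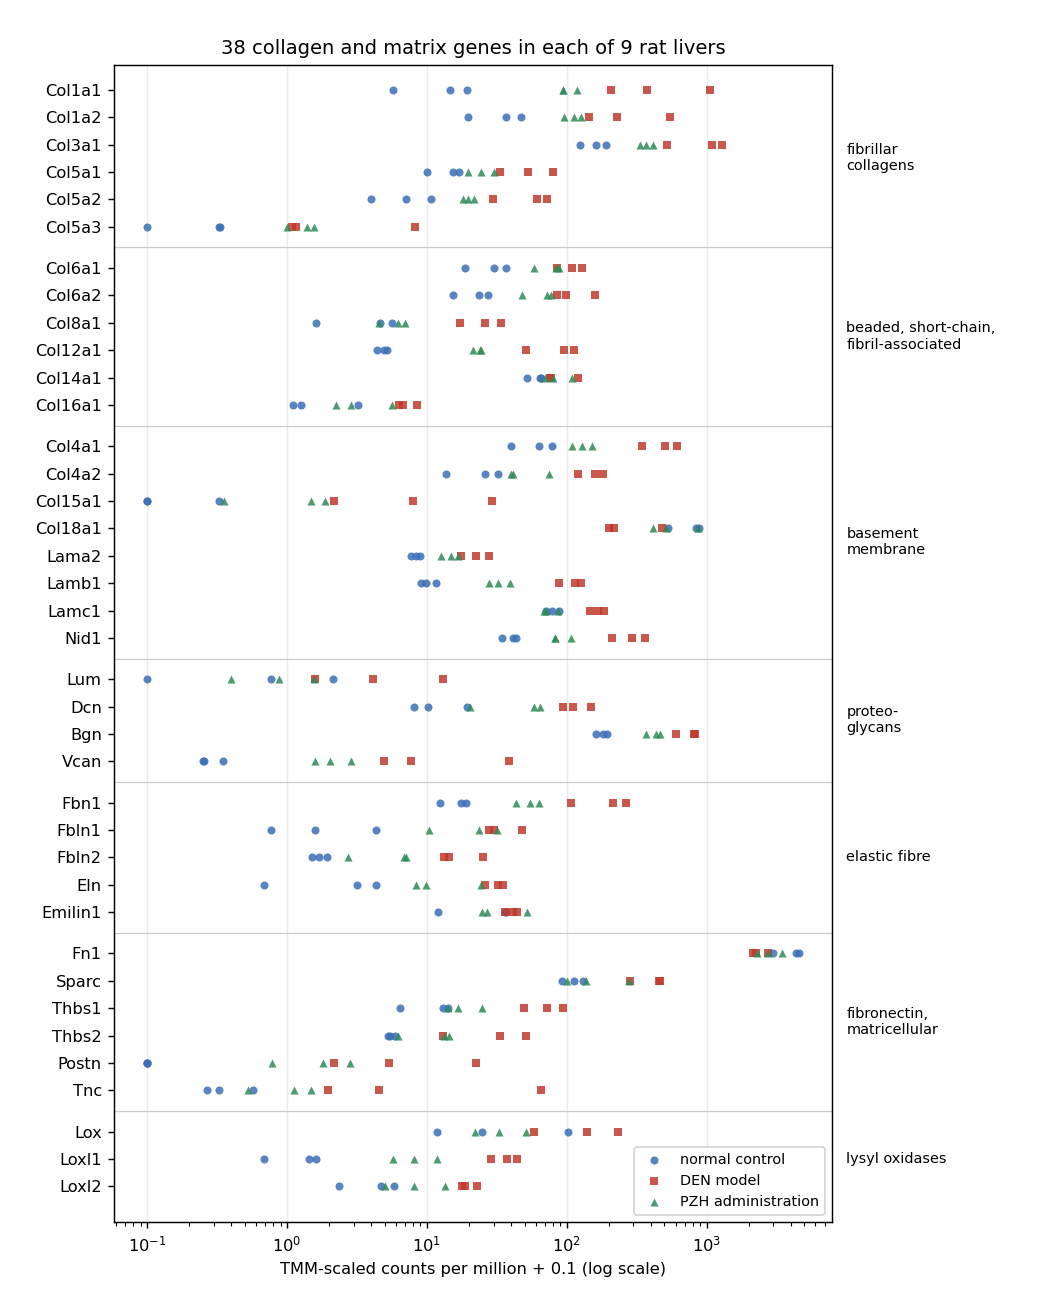
Level of each of the 38 members in each rat, as CPM plus 0.1 on a log scale, with circles for normal control, squares for DEN model and triangles for PZH administration rats, and members grouped by role. A point at 0.1 is a rat with 0 counts, as in all 3 normal control rats for Postn, and Col18a1 and Fn1 are the members whose DEN model rats lie wholly below the normal control rats.

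**Figure D2:**
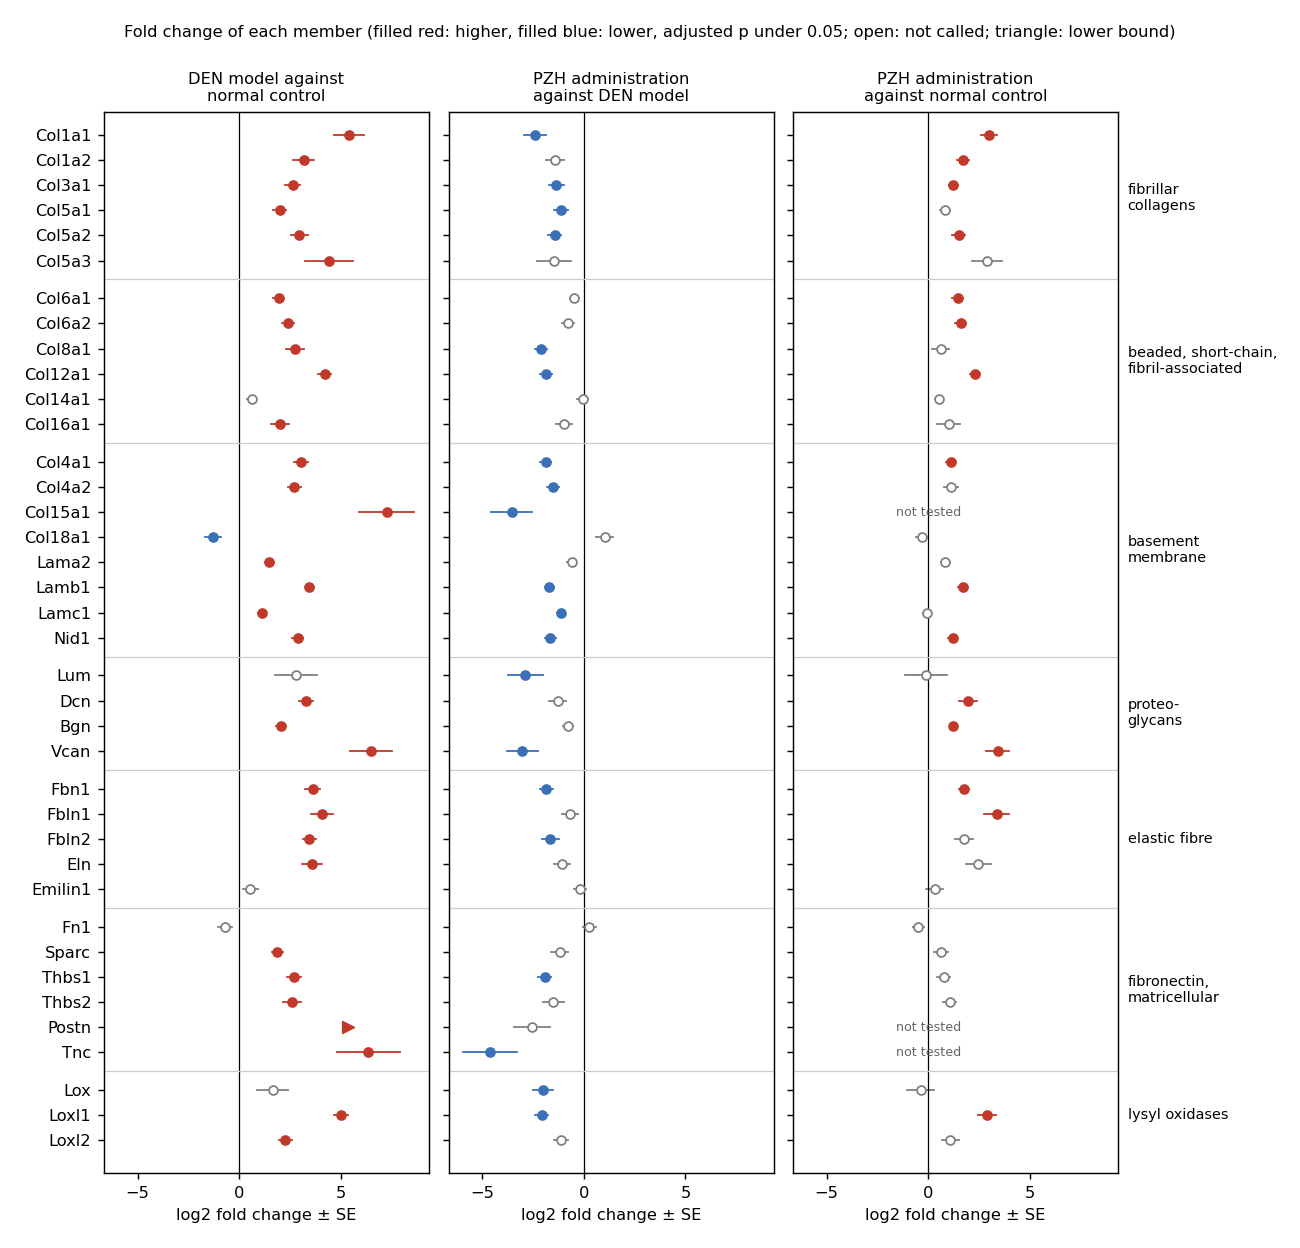
Log2 fold change of each member in each comparison, with bars of 1 SE, filled where the adjusted p is under 0.05. In the left panel 32 members are higher and Col18a1 is lower, in the middle panel 20 are lower, and in the right panel 16 are higher, and the triangle marks the lower bound for Postn.

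The fibrillar collagens, the load-bearing rope of scar tissue, were called higher in DEN model rats in 6 of 6 members. Col1a1, the gene for the alpha 1 chain of type I collagen (ENSRNOG00000003897, chromosome 10, 82745801 to 82762789 in the coordinates of the deposited table), stood at 14.5, 5.62 and 19.2 CPM in N1, N3 and N12. It reached 377, 208 and 1055 CPM in M13, M17 and M24. In G27, G28 and G42 it was at 93.3, 119 and 94.3 CPM. The ranges of the 3 groups did not touch, with PZH administration rats between the others. The log2 fold change of Col1a1 was 5.40 ± 0.73 (SE, 3 rats against 3) in DEN model against normal control rats, with an edgeR adjusted p of 0.000796, and 4.51 without M24. It was -2.40 ± 0.55 in PZH administration against DEN model rats (edgeR adjusted p = 0.0238), the value without M24 was -1.49, and the adjusted p rose to at most 0.0751, without G42. It was 2.97 ± 0.38 in PZH administration against normal control rats (edgeR adjusted p = 0.00515).

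Col3a1, the single chain of type III collagen, was the most abundant of these 6 per length of transcript. Its CPM was 163, 124 and 192 in N1, N3 and N12, 1089, 521 and 1287 in M13, M17 and M24, and 413, 371 and 334 in G27, G28 and G42. These groups were also separate, with a smaller span than for Col1a1. Its log2 fold changes were 2.62 ± 0.38 (edgeR adjusted p = 0.0011), -1.35 ± 0.35 (edgeR adjusted p = 0.0345) and 1.23 ± 0.21 (edgeR adjusted p = 0.0142) in the same order of comparisons. Col1a2, the partner of Col1a1 in type I collagen, rose by 3.16 ± 0.53 in DEN model rats, and by 2.46 without M24. Against DEN model rats, Col1a2 in PZH administration rats had a log2 fold change of -1.43 ± 0.45 with an edgeR adjusted p of 0.0592, although all 3 rats (95.7 to 126 CPM) lay below all 3 DEN model rats (144 to 543 CPM). Col5a1 and Col5a2, chains of type V collagen, which starts the fibrils of types I and III, were called higher in DEN model rats, by 1.98 ± 0.33 and 2.95 ± 0.43, and lower in PZH administration than in DEN model rats, by -1.12 ± 0.32 and -1.44 ± 0.31. For Col1a1, Col1a2, Col3a1, Col5a1 and Col5a2 the order was the same, with normal control rats lowest, PZH administration rats in between and no overlap. Col5a3, a minor type V chain, held 6 counts over the 3 normal control rats and 242 over the DEN model rats, a ratio of 22.5 with a 95% counting interval of 10.2 to 62.0. Much of this came from M24, at 8.20 CPM against 1.06 in M13 and 0.991 in M17, and the call was lost without N3 (edgeR adjusted p = 0.0529). The log2 fold change of 4.40 was 2.68 without M24. With M24 left out, the log2 fold change of Col5a3 in PZH administration against DEN model rats turned from -1.49 to 0.25, and neither value was called.

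Among the beaded, short-chain and fibril-associated collagens, which link fibrils to each other and to cells, 5 of 6 members were called higher in DEN model rats. Col6a1 and Col6a2, chains of the beaded filaments of type VI collagen, were the most abundant per length. Col6a1 measured 30.3, 18.6 and 36.7 CPM in N1, N3 and N12, 109, 85.4 and 130 in M13, M17 and M24, and 88.4, 83.9 and 58.2 in G27, G28 and G42. PZH administration rats overlapped DEN model rats and lay above every normal control rat. Col6a2 measured 23.4, 15.2 and 27.5 CPM in N1, N3 and N12, 99.4, 85.3 and 158 in M13, M17 and M24, and 72.4, 76.8 and 47.7 in G27, G28 and G42. Both were called higher in DEN model rats, with log2 fold changes of 1.94 ± 0.27 and 2.39 ± 0.30, and both were called higher in PZH administration than in normal control rats, with 1.44 ± 0.27 and 1.59 ± 0.27. Between PZH administration and DEN model rats neither was called, at -0.47 ± 0.24 and -0.77 ± 0.29. The row matched to Col6a3, the third chain of type VI collagen, ran from 9.40 to 16.8 CPM in normal control rats, 92.2 to 241 in DEN model rats and 46.0 to 77.3 in PZH administration rats, with a log2 fold change of -1.21 ± 0.37 and an edgeR adjusted p of 0.0529 in PZH administration against DEN model rats.

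Col12a1, a fibril-associated collagen of tissues under tension, rose from 4.30 to 5.12 CPM in normal control rats to 51.5 to 113 in DEN model rats. PZH administration rats stood at 21.3 to 24.4 CPM, apart from both. It was called in all 3 comparisons, with log2 fold changes of 4.21 ± 0.32, -1.87 ± 0.29 and 2.30 ± 0.22, and each call held with any 1 rat left out. Col8a1, a short-chain collagen of vessel walls, was called higher in DEN model rats (2.73 ± 0.44) and lower with PZH (-2.11 ± 0.30), and its PZH administration rats (4.49 to 6.89 CPM) overlapped the normal control rats (1.51 to 5.57 CPM). Col16a1, a minor fibril-associated collagen, was called higher in DEN model rats (2.01 ± 0.45, and 2.71 without N12) and in no other comparison. Col14a1, a fibril-associated collagen found on the surface of mature fibrils, measured 64.9, 52.0 and 64.3 CPM in N1, N3 and N12, 121, 77.1 and 75.8 in M13, M17 and M24, and 79.3, 110 and 69.8 in G27, G28 and G42. Its DEN model rats lay above the normal control rats, but by little apart from M13, with a log2 fold change of 0.61 ± 0.22 and an edgeR adjusted p of 0.0505. The call was made without M17 or without M24, with a smallest adjusted p of 0.0348 over the rats left out.

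Of the 8 basement membrane members, 7 were called higher in DEN model rats and 6 lower with PZH. Col4a1 and Col4a2 encode the chains that twine into the type IV collagen network. In the GRCr8 rat assembly their RefSeq starts lie head to head on chromosome 16, with Col4a1 on the plus strand from 84885597 and Col4a2 on the minus strand from 84885520. The 76 bases between the starts, chr16:84885521-84885596 on the plus strand, are shown because both genes start at its ends, and capitals mark the letters GGGCGG, read on the minus strand.
Col4a1-Col4a2 between the starts: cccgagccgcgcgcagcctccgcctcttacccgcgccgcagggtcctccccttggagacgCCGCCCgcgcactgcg
In the deposited table the loci of the same pair are 83601 bases apart with 0 genes between them, and the build of that table is not given in the sources used here.

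Col4a1 measured 78.1, 40.2 and 62.8 CPM in N1, N3 and N12, 610, 343 and 506 in M13, M17 and M24, and 153, 129 and 109 in G27, G28 and G42. Its 3 groups did not overlap. Col4a2 followed the same order at lower counts, from 13.7 to 32.3 CPM in normal control rats to 120 to 182 in DEN model rats and 39.8 to 74.9 in PZH administration rats. In DEN model against normal control rats the log2 fold changes of Col4a1 and Col4a2 were 3.03 ± 0.33 and 2.70 ± 0.32, and in PZH administration against DEN model rats they were -1.87 ± 0.28 and -1.53 ± 0.30. Against normal control rats, PZH administration rats were called higher for Col4a1 (1.12 ± 0.25, edgeR adjusted p = 0.0381) and not for Col4a2 (1.14 ± 0.35, edgeR adjusted p = 0.104), and the difference between the 2 genes was not tested.

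Lamb1 and Lamc1, the beta 1 and gamma 1 chains of laminin, and Nid1, which bridges laminin and type IV collagen, were called higher in DEN model rats and lower with PZH. Lamb1 ran from 8.98 to 11.6 CPM in normal control rats, 87.7 to 127 in DEN model rats and 27.7 to 39.5 in PZH administration rats. Its log2 fold changes of 3.45 ± 0.22, -1.70 ± 0.22 and 1.71 ± 0.23 had the smallest edgeR adjusted p of the members in the first 2 comparisons, 3.5e-05 and 0.00832. Lamc1 moved less, by 1.09 ± 0.18 and then -1.12 ± 0.19, and its PZH administration rats (68.7 to 86.6 CPM) lay within the range of the normal control rats (70.9 to 87.6 CPM) or just under it. Nid1 was at 34.5 to 43.6 CPM in normal control rats, 212 to 360 in DEN model rats and 82.4 to 107 in PZH administration rats, and was called in all 3 comparisons. Lama2, the laminin alpha 2 chain, was called higher in DEN model rats (1.47 ± 0.22) and in no other comparison. Col15a1, a collagen that bridges basement membrane and fibrils, held 3 counts in the 3 normal control rats and 922 in the DEN model rats, a ratio of 172 with a 95% counting interval of 58.5 to 834, and M24 alone stood at 28.9 CPM against 7.86 in M13 and 2.08 in M17. In PZH administration rats it was at 0.256 to 1.78 CPM and was called lower than in DEN model rats (-3.55 ± 1.00, edgeR adjusted p = 0.0419). Without M24 this value of Col15a1 was -2.15 with an adjusted p of 0.144, and the log2 fold change in DEN model against normal control rats went from 7.25 to 5.87. The latter was 10.91 without N12, which held all 3 normal control counts, so that 0 counts were left in that group.

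Col18a1, the source of endostatin and a collagen that hepatocytes express, went the other way. This gene (ENSRNOG00000001229, chromosome 20, 12225202 to 12332858 in the table's coordinates) measured 889, 526 and 841 CPM in N1, N3 and N12. In DEN model rats it was at 216, 483 and 199 CPM in M13, M17 and M24, and in PZH administration rats at 868, 509 and 417 in G27, G28 and G42. DEN model rats lay below all normal control rats, with M17 close to N3, and PZH administration rats overlapped both groups. The log2 fold change was -1.31 ± 0.40 in DEN model against normal control rats (edgeR adjusted p = 0.026). That call was lost without N1, N12, M13 or M24, with an adjusted p of up to 0.0985, and with scaling by library totals. In PZH administration against DEN model rats it was 1.03 ± 0.43, the highest among the members, with an edgeR adjusted p of 0.13 that fell to 0.0189 without M17. The summed level of 8 hepatocyte markers ran from 159000 to 173400 CPM in normal control rats, 33730 to 78290 in DEN model rats, with M17 highest, and 129900 to 173300 in PZH administration rats, and its part in the Col18a1 values was not tested.

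Among the proteoglycans, Bgn and Dcn, small leucine-rich proteins that bind collagen fibrils and growth factors, were the most abundant per length. Bgn (biglycan) measured 162, 183 and 193 CPM in N1, N3 and N12, 813, 604 and 820 in M13, M17 and M24, and 434, 463 and 370 in G27, G28 and G42. Dcn (decorin) measured 19.2, 10.1 and 8.01 CPM in N1, N3 and N12, 112, 94.4 and 149 in M13, M17 and M24, and 20.4, 64.7 and 58.4 in G27, G28 and G42. For both, the 3 groups were separate, although G27 was just above N1 for Dcn. DEN model rats were called higher for Bgn (2.07 ± 0.25) and Dcn (3.28 ± 0.34), and so were PZH administration against normal control rats (1.24 ± 0.20 and 1.95 ± 0.46). In PZH administration against DEN model rats neither reached the threshold, at -0.80 ± 0.24 (edgeR adjusted p = 0.0531) for Bgn and -1.29 ± 0.40 (edgeR adjusted p = 0.0565) for Dcn.

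Vcan (versican), a large proteoglycan of provisional matrix, was close to the floor in normal liver. It was at 0.156, 0.252 and 0.153 CPM in N1, N3 and N12, 7.65, 4.80 and 38.8 in M13, M17 and M24, and 1.92, 2.78 and 1.50 in G27, G28 and G42. The groups did not overlap, and M24 stood far above the other DEN model rats. The ratio of summed counts was 96.4 (95% counting interval 46.7 to 240) in DEN model against normal control rats, from 7 counts in the normal control rats. PZH administration against normal control rats gave the highest log2 fold change among the members tested there, 3.42 ± 0.57 (edgeR adjusted p = 0.0118), or a ratio of 11.1 (5.18 to 28.2) of summed counts. Against DEN model rats the change of Vcan was -3.02 ± 0.78 (edgeR adjusted p = 0.0325), and without M24 it was -1.56 with an adjusted p of 0.0643. In DEN model against normal control rats its log2 fold change was 6.49, and 5.04 without M24. Lum (lumican), which spaces fibrils, was sparse, at 2.03, 0.671 and 0 CPM in N1, N3 and N12, 4.04, 1.49 and 12.9 in M13, M17 and M24, and 0.299, 1.46 and 0.783 in G27, G28 and G42. Its DEN model and normal control rats overlapped, with a log2 fold change of 2.79 ± 1.05 and an edgeR adjusted p of 0.0563, and the call against PZH administration rats (-2.88 ± 0.86) sat at the threshold with an adjusted p of 0.0497, and was -1.72 with an adjusted p of 0.183 without M24 and -3.53 with an adjusted p of 0.0734 without G28. Against normal control rats its value in PZH administration rats was -0.11 ± 1.03, and 1.27 without N1.

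The elastic fibre group was called higher in DEN model rats in 4 of 5 members. Fbn1 (fibrillin 1), the backbone of microfibrils, measured 12.3, 17.5 and 18.9 CPM in N1, N3 and N12, 215, 108 and 267 in M13, M17 and M24, and 43.4, 63.7 and 54.9 in G27, G28 and G42. The groups stood apart, and Fbn1 was called in each comparison, at 3.61 ± 0.37, -1.84 ± 0.34 and 1.74 ± 0.25. Fbln1 and Fbln2, fibulins that tie elastic fibres to other matrix, rose by 4.06 ± 0.55 and 3.45 ± 0.34 in DEN model rats, and Fbln1 by 5.03 without N12. With PZH, Fbln2 was called lower than in DEN model rats (-1.64 ± 0.41) while Fbln1, at -0.68 ± 0.39, was not. Fbln1 in PZH administration rats (10.3, 31.7 and 23.4 CPM in G27, G28 and G42) overlapped the DEN model rats (27.9 to 47.8 CPM) and was called higher than in normal control rats (3.36 ± 0.62, edgeR adjusted p = 0.0186, and 4.31 without N12). Eln (elastin) rose by 3.57 ± 0.51 in DEN model rats and had a log2 fold change of -1.08 ± 0.40 with PZH, which was not called. Emilin1, an elastic fibre glycoprotein, measured 36.0, 11.9 and 36.7 CPM in N1, N3 and N12, 44.3, 36.0 and 40.9 in M13, M17 and M24, and 52.2, 26.9 and 24.7 in G27, G28 and G42. Its groups overlapped in every comparison, and no fold change was called, the largest being 0.54 ± 0.36.

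Fibronectin behaved unlike the matricellular genes grouped with it. Fn1 (ENSRNOG00000014288, chromosome 9, 78900103 to 78969078 in the table's coordinates) measured 4604, 4330 and 2974 CPM in N1, N3 and N12, 2256, 2740 and 2154 in M13, M17 and M24, and 3466, 2725 and 2296 in G27, G28 and G42. DEN model rats lay below all normal control rats, while PZH administration rats overlapped both. The log2 fold change was -0.72 ± 0.35 in DEN model against normal control rats, with an edgeR adjusted p of 0.124 that fell to 0.0483 without M17. DESeq2 called Fn1 lower there (-0.72, adjusted p = 0.00809). With scaling by library totals the same value was 0.13. It was 0.27 ± 0.31 in PZH administration against DEN model rats and -0.49 ± 0.28 against normal control rats, the lowest value among the members there, and neither was called. Per length of transcript, Fn1 was the highest member in normal control rats at 322 ± 68.0 FPKM (fragments scaled to transcript length and library size, SD over 3 rats) and in PZH administration rats at 269 ± 43.7 FPKM. In DEN model rats Bgn, at 444 ± 124 FPKM, stood above Fn1 at 352 ± 3.50 FPKM, and their rats overlapped (302 to 532 and 349 to 356 FPKM).

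Sparc, a collagen-binding protein of remodelling tissue, measured 130, 92.1 and 114 CPM in N1, N3 and N12, 461, 285 and 457 in M13, M17 and M24, and 277, 138 and 100 in G27, G28 and G42. PZH administration rats were scattered, with G27 just under the lowest DEN model rat and G42 within the normal control range. Sparc was called higher in DEN model rats (1.86 ± 0.26) and not called with PZH (-1.19 ± 0.40, edgeR adjusted p = 0.073). Thbs1 and Thbs2, thrombospondins that bind cells and growth factors, rose by 2.71 ± 0.34 and 2.58 ± 0.45 in DEN model rats. Thbs1 was called lower with PZH (-1.93 ± 0.30, edgeR adjusted p = 0.0102), and Thbs2, at -1.50 ± 0.50, was not. Neither was called between PZH administration and normal control rats.

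Postn (periostin) and Tnc (tenascin C), matricellular proteins of healing wounds, separated M24 from the other animals. Postn had 0 counts in all normal control rats, 5.23, 2.08 and 22.2 CPM in M13, M17 and M24, and 0.683, 2.71 and 1.71 CPM in G27, G28 and G42. Against the floor of 3 counts in each normal control rat it was at least 41.3-fold higher in DEN model rats (edgeR adjusted p = 0.00493), or at least 15.3-fold without M24, and at least 7.14-fold higher in PZH administration rats, where it was not tested. PZH administration and DEN model rats overlapped, with a log2 fold change of -2.55 ± 0.87 and an edgeR adjusted p of 0.0749. Tnc measured 0.469, 0.168 and 0.229 CPM in N1, N3 and N12, 4.46, 1.88 and 65.0 in M13, M17 and M24, and 1.02, 1.39 and 0.427 in G27, G28 and G42. DEN model rats lay above all others, by a wide margin in M24 alone. The log2 fold change of Tnc in PZH administration against DEN model rats, -4.61 ± 1.33 (edgeR adjusted p = 0.045), was the lowest among the members, and without M24 it was -1.70 with an adjusted p of 0.129. The call was also lost without M13, G27, G28 or G42. In DEN model against normal control rats it was 6.34 ± 1.54 (edgeR adjusted p = 0.00982), 3.45 without M24, and not called without N3 (adjusted p = 0.0517).

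RefSeq promoter windows of the GRCr8 assembly, from 250 bases before to 50 after the start, were found for 25 of the 40 genes. The letters TATAAA, searched on both strands, occur in the windows of 3 of them (12.0%), Col1a2, Postn and Tnc, and in 14.2% of all 33469 windows. The 250 bases before the start of these 3 genes are shown, 5′ to 3′ on the strand of the gene, because theirs are the windows of members that hold these letters. Capitals mark these letters and the other motifs named after the sequences, on either strand. The windows are chr4:33518307-33518556 (plus strand) for Col1a2, chr2:140677811-140678060 (plus strand) for Postn and chr5:82476132-82476381 (minus strand) for Tnc.
Col1a2: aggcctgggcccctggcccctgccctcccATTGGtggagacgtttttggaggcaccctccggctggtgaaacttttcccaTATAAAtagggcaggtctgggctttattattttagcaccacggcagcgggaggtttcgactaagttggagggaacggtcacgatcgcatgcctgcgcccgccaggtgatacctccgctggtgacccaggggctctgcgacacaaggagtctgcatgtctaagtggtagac
Postn: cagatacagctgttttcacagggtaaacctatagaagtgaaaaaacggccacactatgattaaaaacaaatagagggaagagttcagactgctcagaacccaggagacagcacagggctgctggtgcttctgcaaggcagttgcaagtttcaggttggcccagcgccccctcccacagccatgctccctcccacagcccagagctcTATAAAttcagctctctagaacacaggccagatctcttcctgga
Tnc: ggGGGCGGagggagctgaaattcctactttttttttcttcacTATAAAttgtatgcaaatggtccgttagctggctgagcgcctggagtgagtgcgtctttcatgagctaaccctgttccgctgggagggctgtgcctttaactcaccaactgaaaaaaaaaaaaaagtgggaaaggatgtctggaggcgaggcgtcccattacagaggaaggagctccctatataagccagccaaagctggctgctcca
The TATAAA of Postn begins 44 bases before its annotated start, that of Col1a2 170 bases and that of Tnc 208 bases before. GGGCGG occurs in 15 of the 25 (60.0%) and in 33.1% of all windows, CCAAT in 9 (36.0%) and 37.5%, TGANTCA in 1 (4.0%) and 7.33%, and CACGTG in 0 and 6.42%. These are matches of letters and say nothing of whether a factor binds there.

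Of the 3 lysyl oxidases, Loxl1 and Loxl2 were called higher in DEN model rats. Loxl1, which is needed to renew elastic fibres, measured 1.33, 0.588 and 1.53 CPM in N1, N3 and N12, 44.0, 28.5 and 37.3 in M13, M17 and M24, and 11.7, 7.93 and 5.63 in G27, G28 and G42. The 3 groups did not overlap, and the 3 DEN model rats were close together. Its log2 fold changes of 4.99 ± 0.34 (edgeR adjusted p = 5.65e-05), -2.08 ± 0.31 (0.00961) and 2.88 ± 0.43 (0.00873) were all called, and each call held with any 1 rat left out. Lox, the founding enzyme of the family, measured 11.6, 24.8 and 101 CPM in N1, N3 and N12, 140, 57.8 and 232 in M13, M17 and M24, and 22.1, 51.4 and 32.7 in G27, G28 and G42. N12 stood above M17 and above every PZH administration rat. Lox was not called in DEN model against normal control rats (1.65 ± 0.76, edgeR adjusted p = 0.11), and without N12 the value was 2.98 with an adjusted p of 0.0117. In PZH administration against normal control rats it was -0.37 ± 0.67, and 0.92 without N12. It was called lower in PZH administration than in DEN model rats (-2.00 ± 0.50, edgeR adjusted p = 0.0302). The locus of Lox in the table overlaps that of Znf474, so reads of the 2 genes may be mixed. Loxl2, which also cross-links type IV collagen, rose by 2.25 ± 0.32 in DEN model rats and had -1.13 ± 0.35 with PZH (edgeR adjusted p = 0.0573).

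Chains that are built into the same molecule can be compared as a ratio. Ratios of deposited FPKM within a rat, in which the library's scaling cancels, were compared over rats with an exact two-sided permutation test, which cannot go below p = 0.1 with 3 rats against 3. The ratio of Col1a1 to Col1a2 was 0.315, 0.227 and 0.323 in N1, N3 and N12, 1.31, 1.15 and 1.54 in M13, M17 and M24, and 0.659, 0.749 and 0.782 in G27, G28 and G42. The FPKM of Col1a1 was thus below that of Col1a2 in normal control rats and above it in DEN model rats. PZH administration rats had ratios between those of the other groups, without overlap. Which FPKM is the larger rests on the deposited length of each gene, 5825 bases for Col1a1 and 4622 for Col1a2. Whether either chain was in excess for the molecule was not tested. The mean ratios were 0.288 ± 0.053, 1.33 ± 0.20 and 0.730 ± 0.064 (SD, 3 rats each), and each pair of groups gave the smallest possible exact p of 0.1. Lamb1 to Lamc1 had the same order, with 0.154 ± 0.037 in normal control, 0.770 ± 0.059 in DEN model and 0.516 ± 0.035 in PZH administration rats, again without overlap. Col5a1 to Col5a2 was reversed in order, at 1.45 ± 0.33, 0.691 ± 0.097 and 0.839 ± 0.101, and its PZH administration and DEN model rats overlapped. Col6a1 to Col6a2 was lower in DEN model rats (1.15 ± 0.17) than in normal control rats (1.52 ± 0.07), without overlap, and PZH administration rats (1.40 ± 0.09) overlapped the DEN model rats. Col4a1 to Col4a2, the pair with a shared stretch between their starts, was at 1.95 ± 0.23, 2.35 ± 0.19 and 1.98 ± 0.45, and each pair of groups overlapped (exact permutation p = 0.2, 0.3 and 1.0). Lama2 to Lamc1 was highest in PZH administration rats, at 0.137 ± 0.008 against 0.094 ± 0.011 in DEN model and 0.074 ± 0.014 in normal control rats, whose ranges overlapped with each other. Over 10 ratios and 28 such exact permutation tests, 18 gave p = 0.1, and the smallest p after Benjamini-Hochberg adjustment was 0.156, so none passed.

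**Figure D3:**
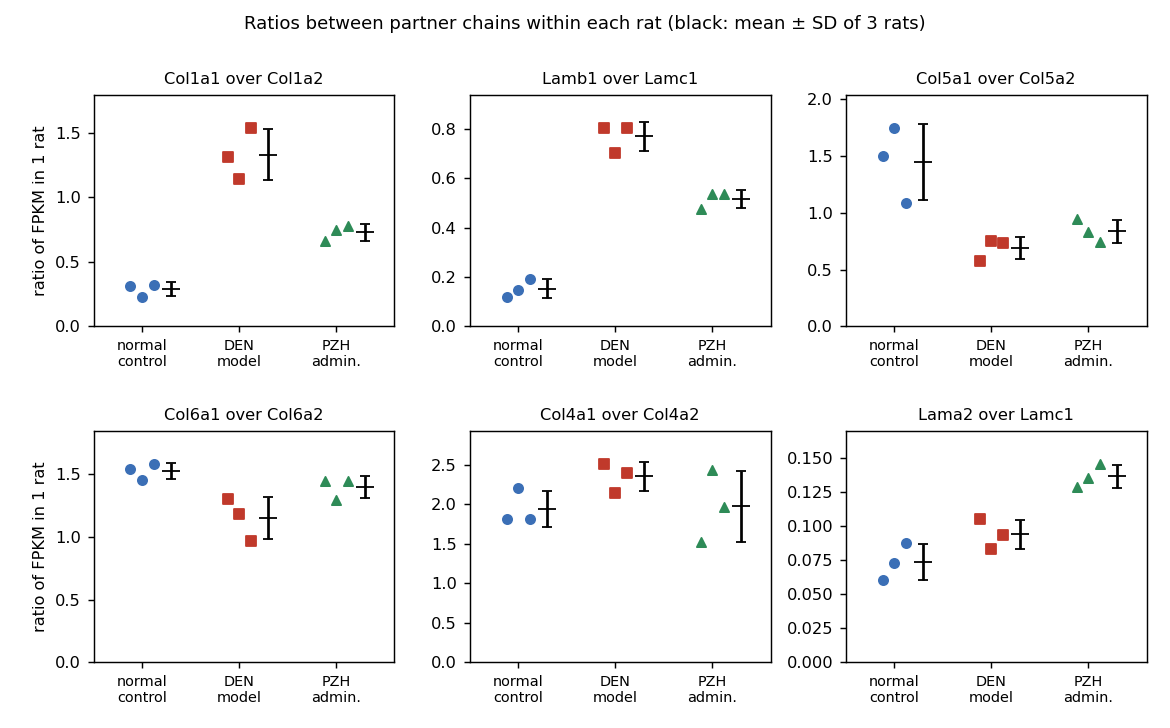
Ratio of the deposited FPKM of 2 partner chains in each rat, with symbols as in the plot of levels and the mean ± SD of 3 rats in black, on axes that start at 0. Col1a1 over Col1a2 and Lamb1 over Lamc1 rise from normal control to PZH administration to DEN model rats without overlap, whereas Col4a1 over Col4a2 stays between 1.53 and 2.51 in all rats.

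As a share of all counts, the 38 members took 0.396% to 0.518% of a normal control library, 0.823% to 1.51% of a DEN model library and 0.428% to 0.573% of a PZH administration library. Fn1 and Col18a1 supplied most of that in normal liver. Without them the share was 0.0591% to 0.0918% in normal control, 0.432% to 1.14% in DEN model and 0.173% to 0.214% in PZH administration rats, and the groups did not overlap.

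The DEN model rats differed among themselves in which part of the matrix was high. M17 was the lowest of the 3 in 32 of 38 members. M24 was the highest in 25, M13 in 11 and M17 in 2. Shares of all genes with each rat highest or lowest are not given here, so counts of this kind cannot be set against them. All 6 fibrillar collagens and all 4 proteoglycans were highest in M24, whereas 6 of the 8 basement membrane members were highest in M13, the exceptions being Col15a1 and Col18a1. From M13 to M24, Tnc differed 14.6-fold, Col5a3 7.72-fold, Vcan 5.07-fold, Postn 4.25-fold and Col15a1 3.68-fold, while Col4a1 stood at 0.830 and Nid1 at 0.814 of its M13 level. The median log2 ratio of M24 to M13 was 0.92 over the fibrillar collagens and -0.18 over the basement membrane members. These compare 2 animals and carry no test. Summed lymphocyte markers stood at 27.1 CPM in M24 against 9.39 in M13, summed endothelial markers at 293 against 542 and summed hepatocyte markers at 33730 against 47230. In M17 the summed hepatocyte markers stood at 78290 CPM, above both. Summed bile duct markers were at 307 CPM in M17, against 746 in M13 and 847 in M24. The part of these cells in the differences between the DEN model rats was not tested. Among PZH administration rats G28 was the highest in 21 members and G42 the lowest in 21, and G27, the deepest library, was the highest in 15 and the lowest in 15.

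**Figure D4:**
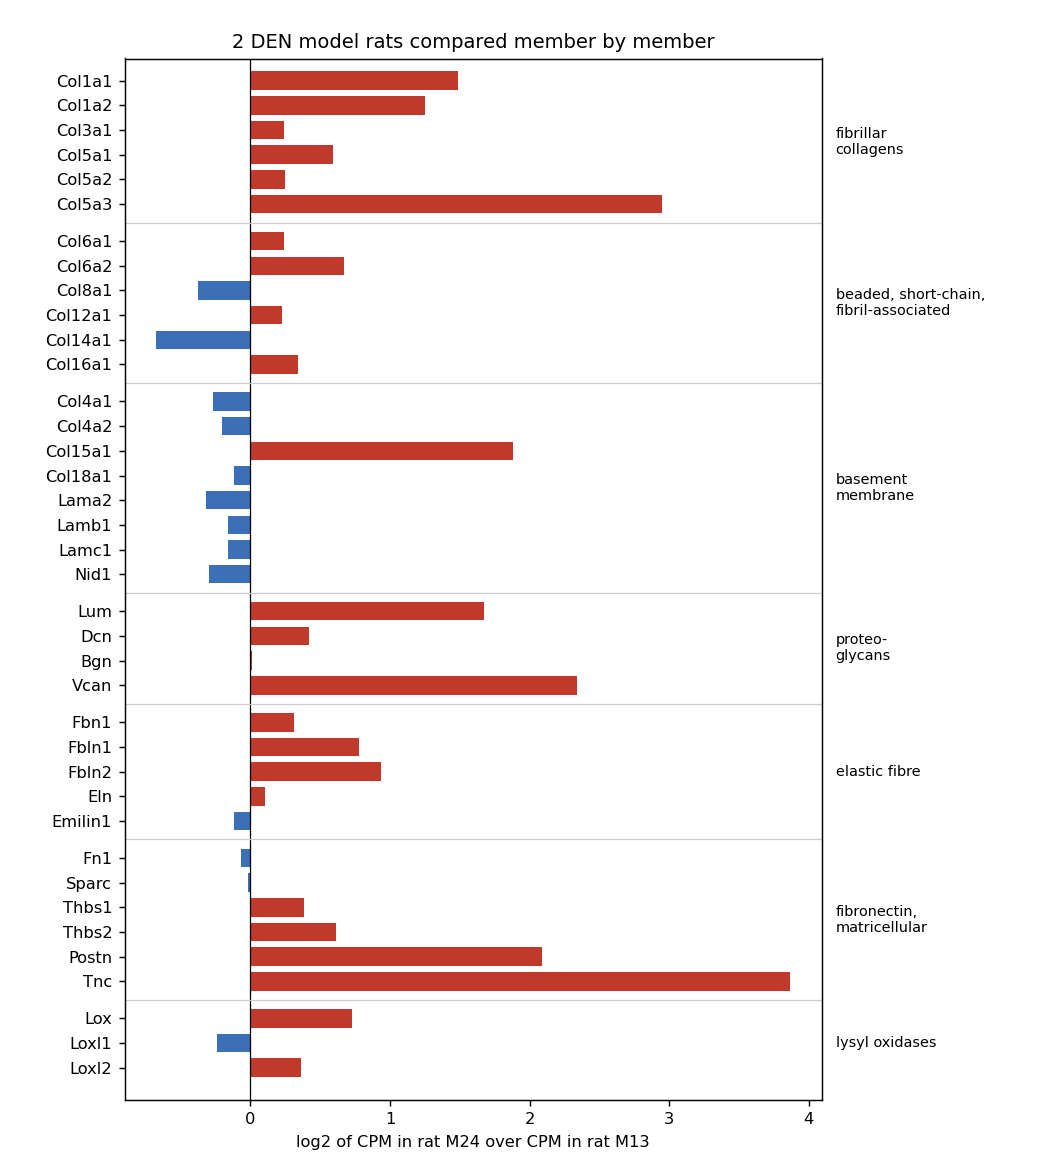
Log2 ratio of the CPM of each member in M24 to that in M13, 2 DEN model rats, grouped by role, with bars from 0. All fibrillar collagens and proteoglycans point to M24, Bgn by only 0.01, and 7 of 8 basement membrane members point to M13, Col15a1 excepted.

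Other matrix genes, listed by function, are given beside the shares of all genes tested, which were 25.3% higher and 20.5% lower in DEN model rats and 8.72% higher and 10.3% lower with PZH. Of 12 other collagen chains tested, 10 were called higher and 1 lower in DEN model rats, and 1 higher and 2 lower in PZH administration against DEN model rats, the latter counts being near those shares. Their median log2 fold changes were 2.62 (2.28 with Col9a2 at its lower bound) and -0.83. Col9a2, a cartilage fibril chain, had 0 counts in normal control rats and was at least 4.93-fold higher in DEN model rats, and Col11a1, another cartilage chain, rose from 0.127 ± 0.220 to 17.4 ± 6.86 CPM (6.98 on the log2 scale). With PZH, Col11a1 stood at 2.86 ± 0.725 CPM and was called lower than in DEN model rats (-2.59), as was Col20a1 (-3.21). Col13a1, a transmembrane collagen, was the exception, called lower in DEN model rats (-2.53, edgeR adjusted p = 0.00229) and higher with PZH (2.28, edgeR adjusted p = 0.0429).

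Among enzymes that fold, modify and process collagen, 11 of 23 were called higher and 2 lower in DEN model rats, and 7 were lower with PZH, with median log2 fold changes of 0.83 and -0.51. Plod2, a lysyl hydroxylase that prepares collagen for durable cross-links, rose from 2.12 ± 0.213 to 69.7 ± 38.1 CPM (5.05 on the log2 scale, edgeR adjusted p = 0.000152) and was at 14.7 ± 5.02 CPM with PZH (-2.22 against DEN model rats). Fkbp10, a chaperone that acts with it, was called lower with PZH (-2.11). Tll1, a procollagen proteinase, held 1 count in the normal control rats and 176 in the DEN model rats, a ratio of 98.3 with a 95% counting interval of 17.4 to 3903. P4ha2, a prolyl hydroxylase subunit, and Bmp1, which trims procollagen, were called lower in DEN model rats, at -1.03 and -0.74.

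Of 9 basement membrane genes outside the list that were tested, 8 were called higher in DEN model rats and 8 lower with PZH, with medians of 1.87 and -1.47. Lama5, the laminin alpha 5 chain, rose from 1.43 ± 0.691 to 103 ± 20.2 CPM (6.17 on the log2 scale, edgeR adjusted p = 2.41e-05) and stood at 16.3 ± 2.34 CPM with PZH (-2.63, edgeR adjusted p = 0.00188). Lamb3, the laminin beta 3 chain, was called lower with PZH (-2.69), and Lama1, at 0 counts in normal control rats, was at least 3.69-fold higher in DEN model rats.

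Other matrix glycoproteins and proteoglycans were mixed, with 15 of 25 called higher and 4 lower in DEN model rats, and 4 higher and 7 lower of 26 with PZH. Fndc1, a fibronectin-domain protein, rose from 0.154 ± 0.153 to 55.9 ± 16.1 CPM (8.42 on the log2 scale, edgeR adjusted p = 3.22e-05) and was at 5.26 ± 1.83 CPM with PZH (-3.39). Hapln1, a hyaluronan link protein, was at least 19.7-fold higher in DEN model rats (4.71 ± 6.95 CPM), with 0 counts in normal control rats, and was called lower with PZH (-5.42, edgeR adjusted p = 0.0443). Of its 290 counts in DEN model rats, 257 came from M17, at 12.7 CPM against 0.808 in M13 and 0.583 in M24, and without M17 the bound was 2.92-fold. The largest falls in DEN model rats were those of Vtn (vitronectin, a plasma protein of hepatocytes), from 4721 ± 572 to 778 ± 618 CPM, and Tgfbi, at -2.58 and -2.09 on the log2 scale. Omd and Efemp1, a small leucine-rich protein and a fibulin, were called higher with PZH than in DEN model rats, at 1.92 and 1.69.

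Markers of cell types in or near the matrix are given beside the same shares of all genes, 25.3% higher and 20.5% lower in DEN model rats and 8.72% higher and 10.3% lower with PZH. Of 7 myofibroblast and smooth muscle markers tested, 6 were higher in DEN model rats and 3 lower with PZH, with summed levels of 37.5 to 86.1, 169 to 309 and 103 to 122 CPM in the N, M and G rats, an order kept in this paragraph. Pdgfra, the most abundant of them, ran from 24.0 to 35.8, 68.7 to 83.3 and 43.7 to 81.9 CPM. With PZH, Pdgfra was not called (-0.17, edgeR adjusted p = 0.668), and the median of the 7 was -1.20. The 3 called lower were Acta2 (-3.02), Tagln (-1.95) and Cthrc1 (-3.38). Of 8 stellate cell markers tested, 4 were higher and 2 lower in DEN model rats, and 3 of 9 were lower with PZH, with summed levels of 172 to 228, 311 to 445 and 163 to 242 CPM, and Reln at 74.5 to 87.3, 142 to 247 and 64.4 to 80.3 CPM. Portal fibroblast markers were higher in 5 of 6 and lower in 1, Dpt, at 278 to 387, 101 to 221 and 279 to 486 CPM, and Gli1 was at 0 in normal control rats. With PZH, 1 of the 6 was higher and 3 were lower than in DEN model rats, and their sum ran from 287 to 400, 275 to 343 and 337 to 566 CPM. Bile duct (cholangiocyte) markers were higher in 7 of 7 in DEN model rats and lower in 7 of 7 with PZH, with sums of 15.5 to 24.1, 307 to 847 and 93.6 to 147 CPM and Krt19 at 0.687 to 2.34, 51.0 to 367 and 11.4 to 19.3 CPM. Mesothelial markers were higher in 2 of 4 in DEN model rats and lower in 1 of 4 with PZH, and their sum ran from 0 to 9.08, 41.5 to 116 and 16.2 to 34.4 CPM, with Msln making up most of it (35.4 to 110 CPM in DEN model rats). Endothelial markers were near those shares, 2 of 9 higher and 3 lower in DEN model rats, and 1 higher and 1 lower with PZH, with sums of 395 to 525, 293 to 542 and 364 to 514 CPM and Kdr lower, at 33.9 to 80.4 CPM in DEN model against 122 to 160 in normal control rats. Of 7 macrophage markers, 3 were lower in DEN model rats (Clec4f, Marco and Cd5l) and 3 others were lower with PZH (Cd68, Adgre1 and Csf1r). Each of these genes had the opposite sign, not called, in the other of these 2 comparisons. Sums of macrophage markers were 555 to 1055, 445 to 629 and 265 to 668 CPM, and Clec4f was at 187 to 366, 80.1 to 128 and 93.4 to 252 CPM. Lymphocyte markers were higher in 3 of 4 in DEN model rats and called in 0 of 3 with PZH, with sums of 2.11 to 3.28, 5.25 to 27.1 and 1.28 to 4.52 CPM and Cd3e at up to 14.9 CPM in M24. Hepatocyte markers were lower in 3 of 8 in DEN model rats and higher in 2 of 8 with PZH. The part of any of these cells in the matrix values was not tested.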

How the data were processed

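The authors sequenced liver mRNA of 9 rats and deposited 1 gene table of the whole series. The submitters' processing notes name fastp, HISAT2 2.1.0, StringTie 1.3.3b and edgeR 3.30.3, and the genome build is not given in the sources used here. Its deposited count columns hold whole reads per gene and rat, not normalized. Its deposited FPKM columns hold the authors' scaling of those counts, and they gave 1 length for each of 19070 genes within 1%. Group means, fold changes, P and Q values of the authors' own comparisons were not used.

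For testing, counts were filtered with filterByExpr, scaled with TMM factors and fitted with glmQLFit and glmQLFTest in edgeR 4.0.16 (R 4.3.3). Each comparison used its own 6 rats and no covariate. Benjamini-Hochberg adjustment covered all genes tested. Levels are CPM with TMM factors over all 9 rats. SE is the size of the log2 coefficient, before edgeR shrinks it, divided by the square root of the quasi-likelihood F statistic. The log2 fold change printed with it is the shrunken one, so the SE is approximate for genes with few counts. FPKM served for levels between genes and for ratios within a rat. Intervals of count ratios are exact 95% binomial intervals and cover counting error only. In simulated data with 200 genes changed by 3 on the log2 scale, edgeR recovered 196, 199 and 197 with 4, 8 and 6 false calls, and DESeq2 196, 198 and 198 with 24, 31 and 30 false calls, in the order of comparisons DEN model against normal control, PZH administration against DEN model and PZH administration against normal control, among 14083, 14129 and 13139 genes. The simulation gave every gene the same relative spread between rats and as many changes up as down. In the rats more genes were called and spreads differed between genes, so these rates need not hold for them.

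The members, lists and role groups were chosen with earlier results of these data known. Every member is named. Values in every rat are given for the 2 members of each role group with the highest mean FPKM, for the largest and smallest log2 fold change of each comparison, and for members not called or lower in DEN model rats. Other lists give the 2 largest and 2 smallest called changes, and marker lists the gene with the highest mean CPM. Alternatives were DESeq2 1.42.0, library totals, no filter, all 3 groups in one fit, the thresholds of the study and each rat left out. The loci of 7 members overlap another gene in the table, and whether counting used strand is not given in the sources used here.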

Additional observations from a re-analysis of the deposited data

How the results depend on the processing

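The 32 members higher in DEN model than in normal control rats numbered 30 to 36 under DESeq2, library totals, no filter, one fit of all 3 groups and each rat left out. The 1 member lower there became 2 with DESeq2 (Col18a1 and Fn1), 0 with library totals, 0 at the thresholds of the study and 0 to 2 with 1 rat left out. In PZH administration against DEN model rats, the 20 members lower became 34 with library totals, 2 at the thresholds of the study and 7 to 27 with 1 rat left out, and the count higher, 0, became 1 with DESeq2 and 0 to 1 with 1 rat left out. Library totals also moved the median of all genes there by -0.67, so the count of 34 depends on the scaling. Except at the thresholds of the study, shares of all genes under the alternatives are not given here, and the counts cannot be set against them. The 16 members higher in PZH administration than in normal control rats became 5 at the thresholds of the study and 5 to 19 with 1 rat left out, and the count lower stayed at 0 under every alternative. Library totals turned the sign of Fn1 in DEN model against normal control rats (0.13) and in PZH administration against DEN model rats (-0.39), and of Lum (0.12) and Lamc1 (0.17) in PZH administration against normal control rats. With 1 rat left out, the log2 fold change in PZH administration against DEN model rats ran from -1.94 to 0.25 for Col5a3, -0.25 to 0.20 for Col14a1 and -0.63 to 0.018 for Emilin1. Against normal control rats it ran from -0.77 to 1.27 for Lum, -0.12 to 0.54 for Emilin1 and -0.84 to 0.92 for Lox. Apart from the loss of samples that leaving out a rat entails, the cause was not tested. No paired analysis was possible because the groups share no rat number. Depth limits Postn, Col15a1, Col5a3, Vcan and Tnc in normal control rats, where each rat held few counts or none.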
